A study of Homo sapiens with 34 samples.

Results

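SMARCA1 and OGG1 were compared on chromatin of non-treated control cells, through the lists of regions called in 2 SMARCA1 libraries and in 2 OGG1 libraries. All called regions of these libraries were taken, and libraries with the same replicate number, which the labels also give as the batch, were set side by side. The 4 lists held 57045 regions, of 981411 regions in the 20 libraries of the series that have a list. SMARCA1 regions were fewer and narrower than OGG1 regions. A smaller share of them touched a gene end, at 18.9% and 32.6%, against 49.5% and 44.4% of OGG1 regions. OGG1 regions lay at the ends of 51.6% and 55.6% of protein-coding genes, and SMARCA1 regions at those of 7.88% and 21.7%. Sharing was unequal: 44.0% and 66.5% of the SMARCA1 regions were overlapped by OGG1 in replicates 1 and 2, against 15.4% and 28.3% of the OGG1 regions by SMARCA1. That order held in the full lists and turned in lists of equal covered bases. Among the genes that carried SMARCA1 in both libraries and OGG1 in neither, the replication-dependent histone genes stood out by number, at 12 of 51 listed. Of all protein-coding genes 0.436% had this pattern. The 12 are clustered genes that rest on 7 SMARCA1 regions in replicate 1 and 9 in replicate 2.

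The assay was CUT&RUN, in which a nuclease brought to an antibody cuts out the DNA beside the antibody's target. The cells were U2OS, an established human osteosarcoma line, and 500000 of them went into each reaction after 1 min in 0.1% formaldehyde. The SMARCA1 group and the OGG1 group (n = 2 libraries each) shared their background in full: control siRNA siGl3 for 72 h, a double thymidine block, 3 h of release and no H2O2. They differed in the antibody, and the 34 samples of the series also cover Orc6 knockdown, H2O2 and other antibodies. Nothing in the labels says that the libraries came from separate cultures, so p-values measure only the spread between these libraries. The lists carry no read counts, so the depth behind each library is unknown, and IgG libraries were not analysed here. Markers of the line cannot be checked by expression. At the level of occupancy, the bone and mesenchymal genes VIM and SPARC had regions in all 4 libraries, COL1A1 lacked SMARCA1 in replicate 1 alone, SP7 and THY1 had OGG1 in both libraries and no SMARCA1, and RUNX2 and TWIST1 had none.

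SMARCA1, also known as SNF2L, is an ATPase of the ISWI family of chromatin remodellers, which slide and space nucleosomes and are known for roles in transcription and DNA replication. OGG1 is the DNA glycosylase that finds 8-oxoguanine, a common oxidised base, cuts it from the DNA and so opens base excision repair. Orc6 belongs to the origin recognition complex, which marks where replication starts. It was profiled in the same cells, and its lists are set beside both.

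Promoters of 8 genes show the sequences at which the lists parted or met. Each runs from 250 bases before to 50 bases after the start in RefSeq (GRCh38.p14), and in these 8 genes the printed window overlapped a region in every library of its class. The window need not hold that region's place of highest signal. For OGG1 that place lay at 9.89 and 16.9 kb from the RPL38 start, and at 0.29 and 0.168 kb from the NTHL1 start. For SMARCA1 it lay at -2.64 and 5.95 kb from the H4C2 start, and at 0.359 and -0.306 kb from the PPM1D start. Capitals mark CCAAT or TATAAA or GGGCGG on either strand, and ATTGG and TTTATA and CCGCCC are their reverse complements. The first 4 had SMARCA1 in both libraries and OGG1 in neither. They are the histone H4 genes H4C2 (chr6:26027234-26027533, minus strand) and H4C11 (chr6:27823842-27824141, plus strand), the histone H2B gene H2BC5 (chr6:26157871-26158170, plus strand) and BMP5, a bone morphogenetic protein gene (chr6:55875541-55875840, minus strand).
H4C2: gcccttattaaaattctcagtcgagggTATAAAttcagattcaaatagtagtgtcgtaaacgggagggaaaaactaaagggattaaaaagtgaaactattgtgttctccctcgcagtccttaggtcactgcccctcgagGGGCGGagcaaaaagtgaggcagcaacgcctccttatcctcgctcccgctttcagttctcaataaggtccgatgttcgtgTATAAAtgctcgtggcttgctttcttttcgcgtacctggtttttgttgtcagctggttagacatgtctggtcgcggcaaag
H4C11: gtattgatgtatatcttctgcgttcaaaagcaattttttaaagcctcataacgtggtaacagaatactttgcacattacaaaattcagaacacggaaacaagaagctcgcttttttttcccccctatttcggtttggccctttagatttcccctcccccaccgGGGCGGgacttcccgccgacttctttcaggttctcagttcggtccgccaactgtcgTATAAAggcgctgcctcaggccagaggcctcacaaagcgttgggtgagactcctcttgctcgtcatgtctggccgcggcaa
H2BC5: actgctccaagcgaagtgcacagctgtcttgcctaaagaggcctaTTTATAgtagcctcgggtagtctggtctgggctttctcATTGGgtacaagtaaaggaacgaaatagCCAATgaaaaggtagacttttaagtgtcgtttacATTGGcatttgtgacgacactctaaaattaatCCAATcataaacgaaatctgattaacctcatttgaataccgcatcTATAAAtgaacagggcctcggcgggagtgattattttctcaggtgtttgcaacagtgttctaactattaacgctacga
BMP5: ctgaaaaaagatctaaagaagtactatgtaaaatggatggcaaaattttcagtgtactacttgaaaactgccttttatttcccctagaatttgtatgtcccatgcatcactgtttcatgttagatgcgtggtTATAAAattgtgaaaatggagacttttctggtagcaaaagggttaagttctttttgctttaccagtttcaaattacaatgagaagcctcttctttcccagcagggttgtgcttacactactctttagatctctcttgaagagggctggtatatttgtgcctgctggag

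Another pair of genes had OGG1 in both libraries and SMARCA1 in neither. NTHL1 encodes a glycosylase for oxidised pyrimidines (chr16:2047785-2048084, minus strand) and RPL38 a protein of the large ribosomal subunit (chr17:74203428-74203727, plus strand).
NTHL1: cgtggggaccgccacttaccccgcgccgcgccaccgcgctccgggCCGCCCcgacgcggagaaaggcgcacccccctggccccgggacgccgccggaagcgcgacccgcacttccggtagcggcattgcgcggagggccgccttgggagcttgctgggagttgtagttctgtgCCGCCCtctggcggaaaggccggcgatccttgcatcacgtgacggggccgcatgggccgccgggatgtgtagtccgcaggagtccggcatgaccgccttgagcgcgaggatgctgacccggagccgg
RPL38: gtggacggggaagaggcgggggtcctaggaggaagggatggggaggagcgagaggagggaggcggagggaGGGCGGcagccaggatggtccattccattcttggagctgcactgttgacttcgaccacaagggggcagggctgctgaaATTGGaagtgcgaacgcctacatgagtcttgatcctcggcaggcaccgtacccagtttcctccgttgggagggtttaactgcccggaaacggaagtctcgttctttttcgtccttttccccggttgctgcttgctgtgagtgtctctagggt

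The last pair had both antibodies in all 4 libraries. PPM1D encodes a phosphatase that damps the p53 response (chr17:60599943-60600242, plus strand) and ID1 an inhibitor of basic helix-loop-helix factors (chr20:31605039-31605338, plus strand).
PPM1D: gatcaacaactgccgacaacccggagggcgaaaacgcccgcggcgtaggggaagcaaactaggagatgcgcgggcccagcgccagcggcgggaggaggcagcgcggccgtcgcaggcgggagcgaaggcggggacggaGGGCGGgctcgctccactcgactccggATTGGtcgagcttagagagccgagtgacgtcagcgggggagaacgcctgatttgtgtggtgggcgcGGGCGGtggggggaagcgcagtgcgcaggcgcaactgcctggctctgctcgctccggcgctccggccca
ID1: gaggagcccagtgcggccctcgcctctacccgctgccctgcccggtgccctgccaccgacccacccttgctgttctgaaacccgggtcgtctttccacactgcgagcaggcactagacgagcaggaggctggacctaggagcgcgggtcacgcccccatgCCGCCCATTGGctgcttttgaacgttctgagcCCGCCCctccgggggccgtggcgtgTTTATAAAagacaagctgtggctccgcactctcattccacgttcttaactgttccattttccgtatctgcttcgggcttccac

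The histone and BMP5 windows were poorer in G and C than the others. The share of G and C was 46.7% in H4C2, 49.7% in H4C11, 41.3% in H2BC5 and 37.3% in BMP5, against 73.3% in NTHL1 and 59.3% in RPL38. The windows in all 4 libraries had 71.0% (PPM1D) and 62.7% (ID1). TATAAA was present in each of the first 4 windows, of which 3 are histone promoters, and also in the ID1 window. Of all RefSeq windows searched, 9.64% had it.

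SMARCA1 occupied much less of the genome than OGG1. SMARCA1 lists held 6992 regions in replicate 1 and 11036 in replicate 2, against 17813 and 21204 OGG1 regions. They covered 31.8 and 43.6 Mb, against 165.7 and 244.3 Mb. The median region was 3789.5 and 3231 bp wide for SMARCA1, and 6591 and 7494 bp wide for OGG1. Every SMARCA1 value lay below every OGG1 value in these 3 measures. On the log2 scale SMARCA1 differed from OGG1 by -1.15 in region number (a fold of 0.452) and differed by -2.43 in covered bases (a fold of 0.185), each as a difference between group means of log2 values.

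The kind of place differed as well. The gene ends are windows of 1 kb on each side of where a protein-coding gene begins or stops in RefSeq, and they make up 2.40% of the genome span. Gene ends were touched by 18.9% and 32.6% of SMARCA1 regions, against 49.5% and 44.4% of OGG1 regions. OGG1 regions were wider, and wider regions touch a gene end more often by size alone. The place of highest signal, which does not depend on touching by width, lay within 1 kb of a gene end in 12.1% and 26.5% of SMARCA1 regions. For OGG1 it did so in 36.7% and 29.3%, so the antibodies were close in replicate 2. Regions outside any protein-coding gene made up 46.2% and 38.5% of the SMARCA1 lists, against 24.7% and 27.4% of the OGG1 lists. Protein-coding genes take up 41.6% of the genome span, so the part of the span outside them exceeds each of these shares. The place of highest signal lay a median of 34.7 and 16.9 kb from the nearest gene end for SMARCA1, against 5.70 and 9.85 kb for OGG1. At least 1 end of 7.88% and 21.7% of the 19974 protein-coding genes was occupied by SMARCA1, and of 51.6% and 55.6% by OGG1. The groups did not overlap in these measures, though the SMARCA1 replicates stood far apart in genes occupied. Each of the 6 tested measures (region number, bases, width, share at gene ends, share outside genes and genes occupied) gave an exact two-sided permutation p of 0.333, the smallest that 2 against 2 libraries allow. Blocked by replicate number, each measure gave p = 0.5, again the smallest possible (exact test).

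**Figure D1:**
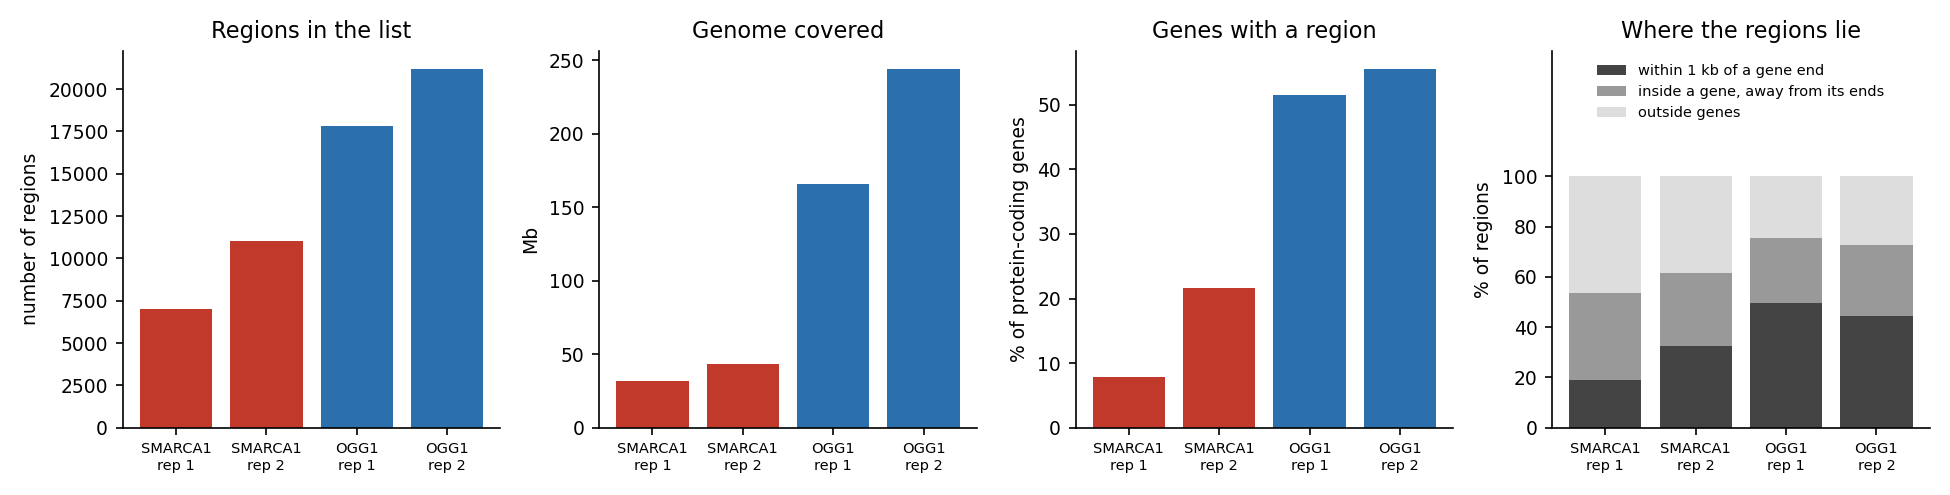
Number of regions, Mb covered, percent of protein-coding genes with a region within 1 kb of an end, and percent of regions by place, for each SMARCA1 (red) and OGG1 (blue) library of non-treated siGl3 cells; bars are single libraries. Both SMARCA1 libraries stay below both OGG1 libraries in number (6992 and 11036 against 17813 and 21204), Mb and genes, and have larger shares outside genes.

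The genes-occupied difference turned with the size of the lists. When each list was held to 31.8 Mb, taking the regions of highest total signal first, SMARCA1 occupied 7.88% and 13.2% of genes, against 6.15% and 4.95% for OGG1. The difference, SMARCA1 minus OGG1, was then 4.99 points, against -38.8 points in the full lists. OGG1 kept 729 and 410 regions in those lists, with median widths of 37459 and 68485.5 bp. The shares of regions at gene ends kept their order, at 18.9% and 32.9% for SMARCA1 and 76.4% and 83.4% for OGG1. The floors of the deposited lists also differed: the lowest total signal of a region, in the authors' unit, was 13925 and 10712 in SMARCA1 lists and 29423 and 32321 in OGG1 lists.

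In the full lists a larger share of SMARCA1 regions than of OGG1 regions was shared. Of the SMARCA1 regions, 3075 of 6992 (44.0%) overlapped an OGG1 region by at least 1 bp in replicate 1 and 7334 of 11036 (66.5%) in replicate 2. Of the OGG1 regions, 2746 of 17813 (15.4%) and 5995 of 21204 (28.3%) overlapped a SMARCA1 region. In bases, 36.8% and 60.1% of the SMARCA1 lists lay in OGG1 regions, which cover 5.47% and 8.06% of the span. Conversely 7.05% and 10.7% of the OGG1 bases lay in SMARCA1 regions, which cover 1.05% and 1.44% of the span. Sharing was higher in replicate 2 by all of these shares, and the order of the antibodies rested on list size. In lists of equal length 27.1% and 43.0% of SMARCA1 regions were overlapped, against 22.4% and 32.7% of OGG1 regions. In lists of equal covered bases the order turned, with 6.16% and 9.20% of SMARCA1 regions, against 37.6% and 64.4% of OGG1 regions.

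Libraries of the same antibody shared more than libraries of different antibodies. The Jaccard index, shared bases over all bases covered by a pair, was 34.0% for the SMARCA1 pair and 48.4% for the OGG1 pair. Across the antibodies it ran from 5.07% to 12.7% over the 4 pairs. The mean was 41.2% within and 8.51% across antibodies, a difference of 32.7 points. The exact permutation p was 0.333 over the 3 ways to pair 4 libraries, the smallest possible. Within an antibody, 72.0% of SMARCA1 replicate 1 regions were overlapped by replicate 2 and 46.0% the other way, while OGG1 gave 88.1% and 66.1%. SMARCA1 replicate 2 was thus overlapped more by OGG1 replicate 2 (66.5%) than by its own, shorter replicate (46.0%).

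**Figure D2:**
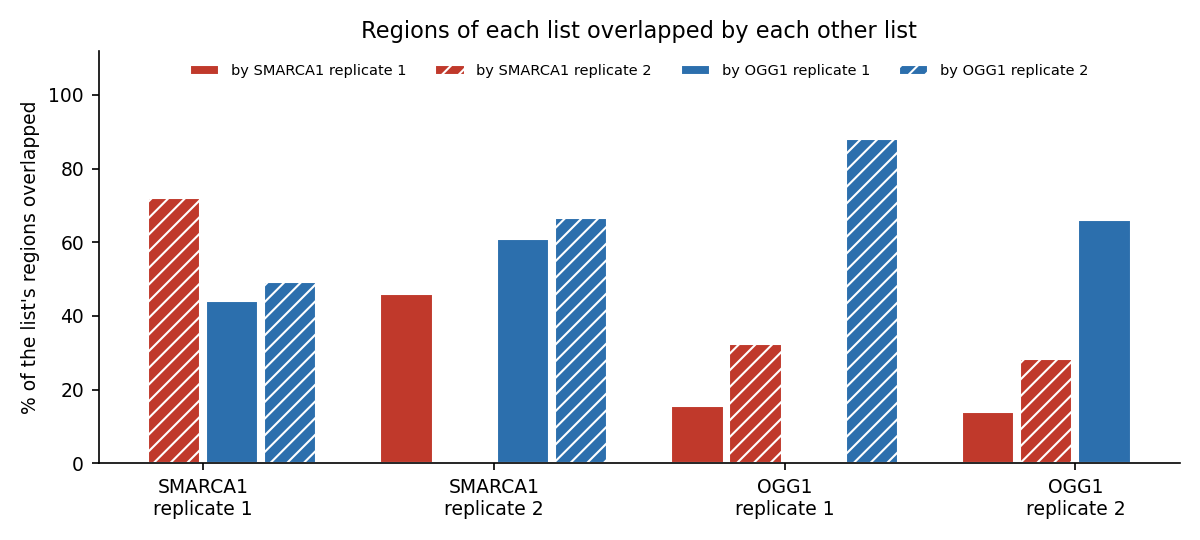
Percent of the regions of each list (horizontal axis, SMARCA1 left of OGG1) overlapped by at least 1 bp by each of the other 3 lists; colour gives the antibody of the overlapping list and hatching its replicate 2. SMARCA1 bars by OGG1 lie between 44.0% and 66.5%, OGG1 bars by SMARCA1 between 14.0% and 32.3%.

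Shared and unshared SMARCA1 regions lay in different places. Of SMARCA1 regions shared with OGG1, 35.0% and 43.9% touched a gene end, against 6.20% and 10.2% of the unshared ones. Of the unshared SMARCA1 regions 54.9% and 54.3% lay outside genes, against 35.1% and 30.6% of the shared ones. Their median widths were close, at 3747 and 3245 bp for unshared SMARCA1 regions and 3850 and 3219 bp for shared ones, and the replicates differed in direction. The OGG1 replicates went opposite ways in place: 46.1% of shared and 50.2% of unshared OGG1 regions touched a gene end in replicate 1, and 56.8% and 39.4% in replicate 2. OGG1 regions shared with SMARCA1 ranked higher in their own list, at a median percentile of total signal of 67.7 and 67.6, against 47.0 and 42.8 for unshared ones. Of the 1782 and 2121 OGG1 regions of highest total signal 31.1% and 58.2% were shared, and of the 8907 and 10602 of lowest total signal 10.1% and 17.6%. Shared OGG1 regions were somewhat wider than unshared ones, at 7509 and 8465 bp against 6478 and 7288 bp, and wider regions meet another list more often by position alone. Whether width accounts for the difference in sharing was not tested.

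Orc6 regions of the same cells met the SMARCA1 lists almost everywhere and the OGG1 lists in part. Of SMARCA1 regions, 83.7% and 98.1% overlapped an Orc6 region of the same replicate number, against 56.5% and 68.3% of OGG1 regions. Among SMARCA1 regions not shared with OGG1 the share with Orc6 was 74.3% and 97.8%, and among shared ones 95.7% and 98.2%. Among OGG1 regions it was 49.2% and 56.1% for those not shared with SMARCA1 and 96.8% and 99.2% for shared ones. The Orc6 lists differ in length, 23375 and 63692 regions, so shares should be read within a replicate number.

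Merging the 4 lists gave 26659 loci, of which 2205 (8.27%) held all 4 libraries. SMARCA1 in both libraries with OGG1 in neither made up 1750 loci (6.56%), and OGG1 in both with SMARCA1 in neither 7669 (28.8%). The SMARCA1-only loci had a median width of 5018.5 bp, 57.6% lay outside genes and 6% touched a gene end. Protein-coding genes take up 41.6% of the genome span, so that share outside genes is close to the share of the span outside them. The OGG1-only loci had a median width of 10008 bp, 21.4% lay outside genes and 55.3% touched a gene end. Loci of all 4 libraries were widest, at 14460 bp, and 55.7% touched a gene end. Patterns in between made up the rest: 2812 loci had SMARCA1 in 1 library only, 8004 OGG1 in 1 library only and 4219 both antibodies in fewer than 4 libraries. Orc6 was present in both of its libraries at 83.9% of SMARCA1-only loci, 40.1% of OGG1-only loci and 98.3% of loci of all 4.

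The SMARCA1-only loci of highest total signal lay in or between genes. A high rank by total signal went with width. The 6992 highest OGG1 regions had median widths of 11482 and 16409.5 bp, against 6591 and 7494 bp in the full lists. In SMARCA1 replicate 2 the median was 3846.5 bp, against 3231 bp. The highest mean percentile of total signal belonged to a stretch of 25.4 kb in BABAM2, which encodes a subunit of the BRCA1-A complex (chr2:27970170-27995614), at 99.8 in replicate 1 and 99.8 in replicate 2. A domain of 27.9 kb on the X chromosome (chrX:45693915-45721840) stood at 99.7 and 99.9, and its nearest protein-coding gene, DIPK2B, was 493 kb away. A domain of 19.1 kb (chr9:21674433-21693529) lay 109 kb from MTAP, the methylthioadenosine phosphorylase gene, at 99.6 and 99.5. Others lay 60.2 kb from DIRAS3, a small GTPase gene (chr1:67967972-67985729), 43.0 kb from the aldo-keto reductase gene AKR1E2 (chr10:4761336-4781995) and inside LRMDA (chr10:76278993-76298451). The widest was 38.3 kb long and 695 kb from KCNA4, a potassium channel gene (chr11:29276267-29314611). Domains of 29.3 kb over GTF2F2 and KCTD4 (chr13:45186386-45215678) and of 28.3 kb, 87.8 kb from the forkhead factor gene FOXP1 (chr3:70838708-70866957), came close behind. All of these loci also carried Orc6 in both libraries.

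OGG1-only loci of highest signal ranged from runs of genes to domains over a single gene or none. The first was a domain of 263 kb near the start of chromosome 16 (chr16:965925-1229031). It took in 8 protein-coding genes, among them SOX8, a developmental transcription factor gene, and CACNA1H, a calcium channel gene, and its percentiles were 99.8 and 99.9. Others lay over KIF1A, a kinesin gene (chr2:240710760-240779290), over GLI2, a Hedgehog transcription factor gene (chr2:120756790-120835988), and over GPSM1, DNLZ, CARD9 and SNAPC4 (chr9:136320738-136386012). The widest SMARCA1-only locus, 38.3 kb, was shorter than each of these.

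Loci of all 4 libraries with the highest signal included cytokine and growth-control genes. A domain of 143 kb on chromosome 22 (chr22:30190332-30333562) held LIF and OSM, which encode related cytokines, at percentiles of 99.7 and 100 for SMARCA1 and 99.8 and 99.9 for OGG1. IL3 and CSF2, which encode blood growth factors, lay in a domain of 55.0 kb (chr5:132060497-132115509) at 99.5 and 99.9 for SMARCA1 and 97.1 and 98.2 for OGG1. A further one of 105 kb lay 202 kb from SOX9, the cartilage factor gene (chr17:72328526-72433320). Others lay in PRKCH, a protein kinase C gene (chr14:61521429-61592869), and in PMEPA1, a gene that limits TGF-beta signalling (chr20:57644521-57739713). The widest locus of all, 521 kb on chromosome 7 (chr7:5198763-5719685), contained ACTB, the beta-actin gene. ACTB itself had OGG1 and no SMARCA1 at its ends, so a wide locus of all 4 libraries can hold genes of a different pattern.

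Chromosomes shared out the 2 antibodies unequally. The share of a list on a chromosome did not overlap between antibodies on 22 of 23 chromosomes, with SMARCA1 higher on 10 and lower on 12. Chromosome 4 held 5.38% and 3.85% of SMARCA1 regions, against 2.27% and 2.15% of OGG1 regions. Chromosome 8 held 9.45% and 7.89%, against 4.67% and 4.54%. SMARCA1 was lower on 7 of the 8 chromosomes whose share of genes exceeds their share of the span, with chromosome 12 overlapping. Of the other 15 chromosomes it was higher on 10 and lower on 5 (9, 13, 15, 21 and X). Chromosome 19, with 7.26% of protein-coding genes, held 1.06% and 2.23% of SMARCA1 regions, against 4.81% and 4.78% of OGG1 regions. Chromosome 16 held 1.44% and 2.57%, against 4.76% and 4.82%. Both antibodies were sparse on the X chromosome, at 0.315% and 0.317% for SMARCA1 and 0.578% and 0.651% for OGG1, where the X makes up 5.14% of the span. Copy number of the chromosomes in this line was not measured here.

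**Figure D3:**
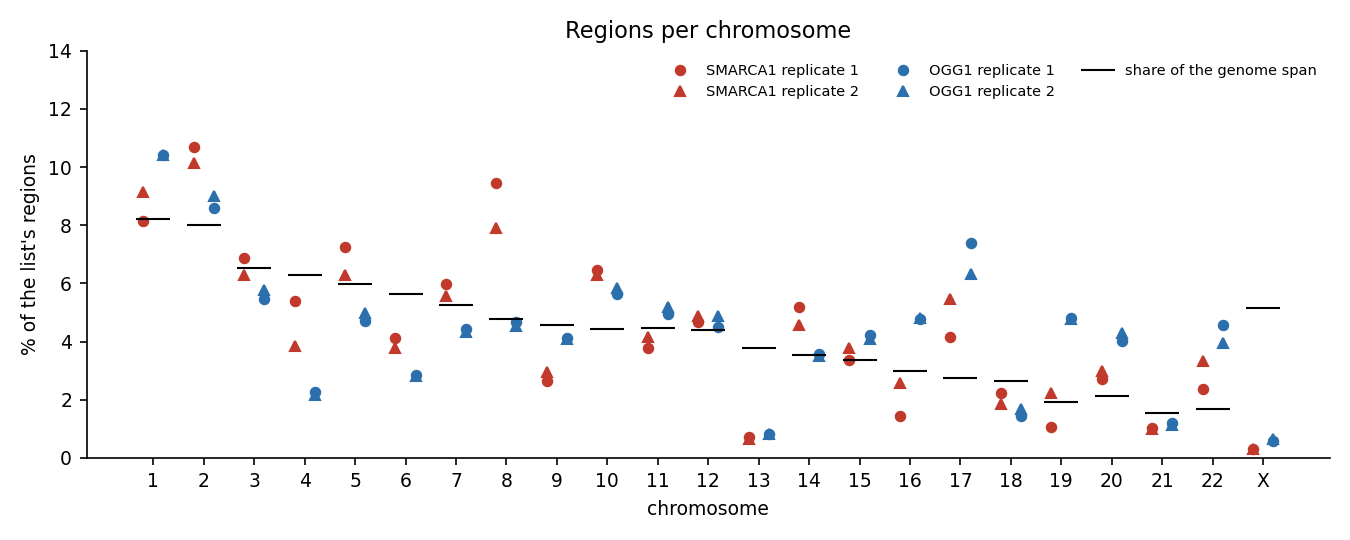
Percent of each list's regions on each chromosome, for SMARCA1 (red, left) and OGG1 (blue, right), with replicate 1 as circles and replicate 2 as triangles; black bars give the chromosome's percent of the genome span. SMARCA1 lies above OGG1 on chromosomes 4 and 8 and below it on 16 and 19, with the X low for both.

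Few genes carried SMARCA1 without OGG1. SMARCA1 in both libraries and OGG1 in neither held for 87 of 19974 protein-coding genes (0.436%). OGG1 in both and SMARCA1 in neither held for 5639 (28.2%), all 4 libraries for 1180 (5.91%), and no library for 7746. Of the 1356 genes with SMARCA1 in both libraries, 1269 had OGG1 in at least 1. Of the 9506 genes with OGG1 in both libraries, 3867 had SMARCA1 in at least 1. No single gene can pass a test here, since an exact test of 2 against 2 libraries cannot go below p = 0.333. Without SMARCA1 replicate 1 the SMARCA1-only count was 273 and the count of all libraries 3742. The SMARCA1-only count was 144 without SMARCA1 replicate 2 and 146 without OGG1 replicate 2. In lists of equal covered bases the SMARCA1-only genes numbered 944 and the OGG1-only genes 413, so the order of the counts turned.

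The replication-dependent histone genes supply the histones that package new DNA in S phase, and the 51 listed lie in the major cluster on chromosome 6 (chr6:26017032-27893891). SMARCA1 occupied 16 of them in replicate 1 and 28 in replicate 2, against 2 and 2 for OGG1. SMARCA1 in both libraries and OGG1 in neither held for 12 (23.5% of the list, where 0.436% of all genes had this pattern), and for no member of any other gene list. No histone gene of the list had OGG1 in both libraries. The 12 were the linker histone genes H1-2 and H1-4, the H2A gene H2AC7, the H2B genes H2BC5, H2BC7 and H2BC12, the H3 genes H3C2, H3C4 and H3C10, and the H4 genes H4C2, H4C5 and H4C11. Neighbouring genes share a region, and the 12 rest on 7 SMARCA1 regions in replicate 1 and 9 in replicate 2.

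Within the SMARCA1 lists the regions at the 12 genes ran from low to high rank in replicate 1 and from middle to high in replicate 2. The region at H4C2 and H3C2 stood at the 90.3 percentile of total signal in replicate 1 and the 99.2 in replicate 2. That at H2AC7, H2BC7 and H3C4 stood at 79.7 and 68.1, that at H1-4 and H2BC5 at 76.1 and 77.9, and that at H4C11 at 69.1 and 87.6. H3C10 was lowest in replicate 1, at 12.8, and reached 79.6 in replicate 2. H2BC12 stood at 25.2 and 95.3, and H1-2 at 50.1 and 89.2. Of the SMARCA1 regions in the cluster, 9 of 10 and 13 of 17 lay at listed histone genes, against 1 of 10 and 1 of 7 OGG1 regions. The 17 other protein-coding genes in the span had SMARCA1 in neither library, and 1 of them had OGG1 in each OGG1 library. The OGG1 regions at listed genes were those at H2AC15 and H2BC15 in replicate 1 and at H2AC11 and H2BC11 in replicate 2. All 12 SMARCA1-only histone genes had Orc6 in both of its libraries, as did 27 of the 51 (52.9%), where 36.9% of all genes did. The 21 members with no region in the 4 lists included a run of neighbours, H1-3, H4C6, H3C7 and H2BC9.

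**Figure D4:**
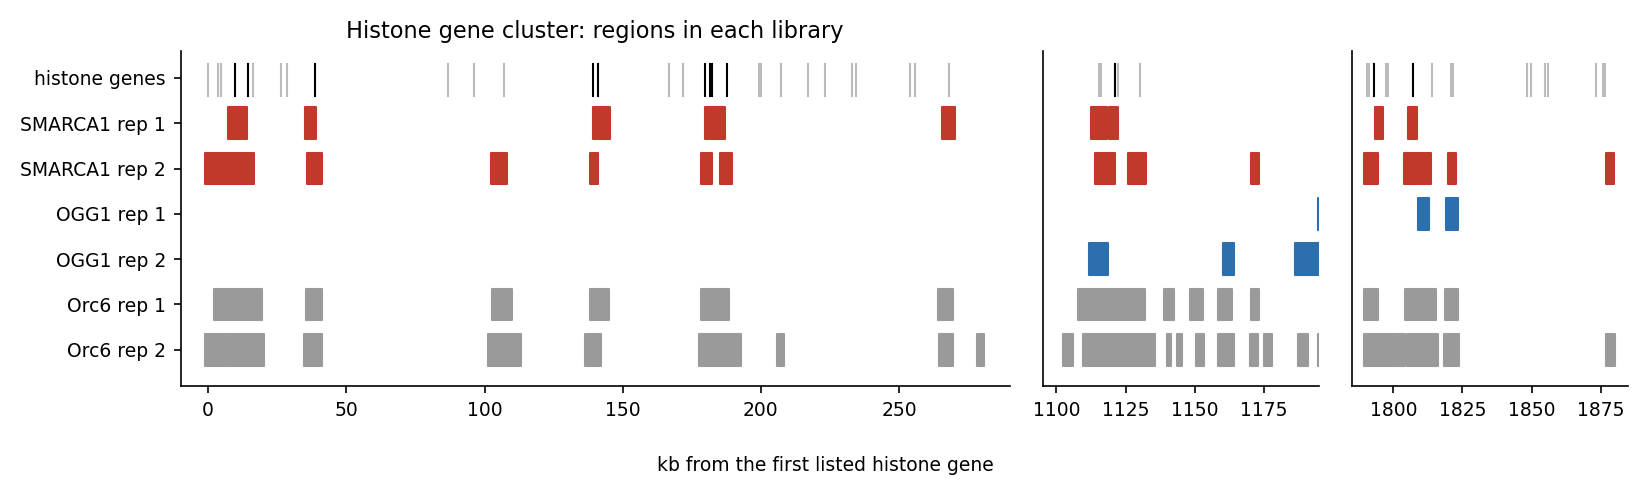
Called regions of each SMARCA1 (red), OGG1 (blue) and Orc6 (grey) library in 3 stretches of the chromosome 6 histone cluster, by distance in kb from the first listed gene; ticks mark listed histone genes, black for the 12 with SMARCA1 in both libraries and OGG1 in neither. Red blocks recur at many of the same places in both replicates, Orc6 blocks cover most of them, and the first stretch has no blue block.

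The histone count held across the alternatives better than the count of all genes. It lay between 9 and 17 in every alternative except the one without SMARCA1 replicate 1, which gave 24. In lists of equal length and of equal covered bases it was 14 each. Reads from near-identical histone copies can map to more than 1 gene, and the sources used here do not say how the authors treated such reads. The gene H3-3B, which encodes the replication-independent histone H3.3 and lies on chromosome 17, had regions in all 4 libraries at percentiles of 97.6 and 98.2 for SMARCA1 and 99.6 and 95.9 for OGG1. Further histone genes lie in a smaller cluster on chromosome 1 that the list leaves out, and these were looked up after the values were seen. H2AC19 there had SMARCA1 alone, at 35.6 and 86.1, and H2AC20, H2AC21 and H2BC21 shared a region in both SMARCA1 libraries, at 90.2 and 95.7, and in OGG1 replicate 1, at 47.8. Of their neighbours, H2AC18 and H4C15 had SMARCA1 in replicate 2 alone, and H2BC18, H3C13, H4C14, H3C14 and H3C15 had no region. H4C16 on chromosome 12 had regions in all 4 libraries, at 66.5 and 68.2 for SMARCA1 and 55.6 and 30.9 for OGG1.

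Outside the lists the SMARCA1-only genes of highest signal were a mixed group. KRTAP21-3, a keratin-associated protein gene, stood at 98.4 and 98.6, and the cytokine gene IL18 at 98.4 and 96.2. The chemokine gene CCL20 stood at 95.0 and 97.9, and BMP5 at 98.4 and 90.9. KCTD4 had 99.3 and 91.5 and the zinc finger gene ZNF404 94.0 and 97.1. CLEC2B, a lectin gene, CD96, a lymphocyte receptor gene, SHROOM3, which encodes an actin-binding shape regulator, and BLZF1, a Golgi protein gene, lay between 84.2 and 94.0 in both libraries. None of them is a member of the gene lists.

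OGG1-only genes of highest signal included housekeeping, patterning and neuronal genes. MAFK, which encodes a small Maf partner of the antioxidant factor NRF2, stood at 100 and 99.995 in the OGG1 lists, and ACTB at 99.99 and 100. Both lie in loci where SMARCA1 was called at other places in the same domain. HOXA5 and HOXA6, body-patterning genes, shared a region at 99.7 and 99.4. The focal adhesion genes PXN and BCAR1, which encode paxillin and p130Cas, stood at 98.3 and 99.2 and at 98.4 and 98.8. PSMA7, a proteasome subunit gene, stood at 98.1 and 98.9 and RPL38 at 98.2 and 99.6. Neuronal genes were among them too: GRIN1, a glutamate receptor gene, at 99.2 and 99.7, RBFOX3, a splicing factor gene, at 98.9 and 99.7, NEUROD2 at 97.9 and 99.3, and the glutamate transporter gene SLC17A7 at 98.0 and 98.4. SLC29A4, TNRC18, SLC39A4 and GPIHBP1 led the genes outside the lists, at a mean percentile of 99.97 or above over both OGG1 libraries. SLC29A4 and TNRC18 lie in the same locus as ACTB, and SLC39A4 in another locus of all 4 libraries (chr8:144218964-144561593). SMARCA1 was thus called at other places in these domains too.

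Across the gene lists, OGG1 alone was the commoner pattern in most, and SMARCA1 alone appeared in the histone list only. Beside the 28.2% of all genes, OGG1-only genes made up 8 of 15 neuron genes, 8 of 18 blood cell genes, 14 of 33 NRF2 targets, 12 of 30 cytoskeleton genes and 11 of 28 collagen genes. They made up 11 of 79 ribosomal protein genes, 3 of 31 proteasome genes and 6 of 38 replication genes. For lists of genes that a bone tumour line is not known to use, counts are set beside the 7.88% and 21.7% of all genes with SMARCA1 and the 51.6% and 55.6% with OGG1. Of 18 blood cell genes and 14 germline genes SMARCA1 occupied 0 in either library, of 16 hepatocyte genes it occupied 2 and 0 (12.5% in replicate 1), and of 15 neuron genes 2 and 2 (13.3% each). OGG1 occupied 8 and 9 of the blood cell genes, 3 and 5 of the germline genes, 5 and 5 of the hepatocyte genes and 10 and 11 of the neuron genes. The T-cell co-receptor gene CD4 and the myeloid factor gene SPI1 had OGG1 at percentiles of 98.8 and 93.8 and of 96.6 and 95.2.

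Base excision repair genes, the pathway that OGG1 opens, were occupied at shares above those of all genes in each of the 4 libraries. So were many other lists, and the trait was not particular to repair. These were the remodeller, origin and fork, ribosomal protein, NRF2, p53, AP-1, YAP, ID, osteoblast, collagen, cytoskeleton and HOX lists. Of the 23 repair genes SMARCA1 occupied 3 and 11 (13.0% and 47.8%, where 7.88% and 21.7% of all genes were occupied). OGG1 occupied 19 and 17 of them (82.6% and 73.9%, where 51.6% and 55.6% were). OGG1 in both and SMARCA1 in neither held for 7 (30.4%, beside 28.2% of all genes). These were the glycosylase genes NTHL1, NEIL1, UNG and SMUG1, the scaffold gene XRCC1, the ligase gene LIG1 and PARP1, which encodes the break sensor. APTX, which encodes an end-cleaning enzyme, had all 4 libraries. The OGG1 gene itself had SMARCA1 in replicate 2 alone, at 38.2, and OGG1 in both, at 46.6 and 75. NEIL3, APEX2, POLB and TDG had no region.

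Remodeller genes gave 9 of 26 with OGG1 alone (34.6%, beside 28.2% of all genes) and 4 with all 4 libraries (15.4%, beside 5.91%). The 9 included BAZ1A, BAZ2A, BAZ2B and BPTF, which encode partners of ISWI ATPases, and SMARCA4, the ATPase gene of another family. The 4 were CHRAC1, a small subunit of an ISWI complex, CHD2, CHD4 and SRCAP. CHD2 ranked high for SMARCA1, at 95.8 and 95.5, and low for OGG1, at 18.1 and 16.8. SMARCA1 and its paralog SMARCA5 had no region at their ends. Of the 38 origin and fork genes, 6 (15.8%, beside 5.91%) had all 4 libraries: CDC45, CDC7, MCM5, ORC2, RFC4 and WDHD1. ORC6 had SMARCA1 in replicate 2 alone and OGG1 in both.

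**Figure D5:**
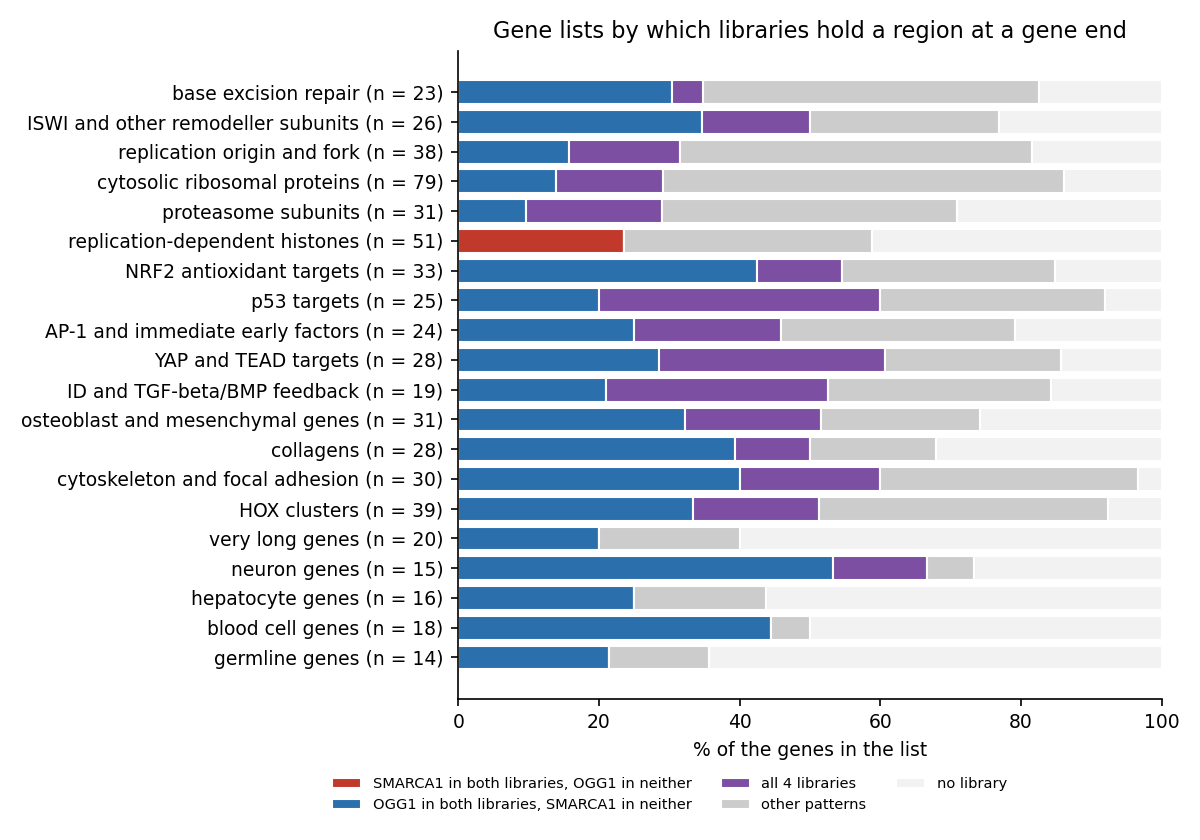
Percent of the members of each of the 20 gene lists by the libraries that hold a region within 1 kb of a gene end: SMARCA1 in both libraries and OGG1 in neither (red), the converse (blue), all 4 libraries (purple), other patterns (grey) and no library (pale). Red appears in the histone list alone (12 of 51), and purple is widest in p53 targets (10 of 25).

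Among the 20 lists, genes with both proteins in all 4 libraries made up their highest shares in p53, YAP and TGF-beta targets. All 4 libraries held for 10 of 25 p53 targets, 9 of 28 YAP and TEAD targets and 6 of 19 genes of ID and TGF-beta feedback, beside 5.91% of all genes. CDKN1A, the p21 cell cycle inhibitor gene, stood at 77.4 and 94.4 for SMARCA1 and 89.2 and 91.0 for OGG1. PPM1D stood at 93.2 and 97.1 for SMARCA1 and 91.9 and 90.5 for OGG1. GADD45A, a stress response gene, had 62.9 and 84.5 for SMARCA1 and 67.8 and 59.9 for OGG1. The p53 targets DDB2, FDXR, PLK3, RRM2B, SERTAD1, TP53I3 and ZMAT3 completed that list.

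Single members of other lists ranked high for both antibodies, while further members of these lists had OGG1 alone. In the AP-1 and immediate early list 5 of 24 genes (20.8%, beside 5.91% of all genes) had all 4 libraries. OGG1 alone held for 6 of that list (25%, beside 28.2% of all genes), among them EGR1 and FOSB. In the ID and TGF-beta list 4 of 19 (21.1%), among them SMAD7 and SKI, had OGG1 alone. In both lists the OGG1-only share was thus below that of all genes. CCN1, a matricellular target of YAP, stood at 96.0 and 98.1 for SMARCA1 and at 77.0 and 71.8 for OGG1. CCN2, its relative, stood at 83.0 and 75.1 for SMARCA1 and at 30.8 and 24.1 for OGG1. The receptor kinase gene AXL had 92.7 and 97.6 for SMARCA1 and 90.6 and 80.5 for OGG1. ID1 stood at 95.0 and 98.7 for SMARCA1 and 97.0 and 97.5 for OGG1, and ID3, its relative, at 89.7 and 97.4 for SMARCA1 and 89.1 and 92.1 for OGG1. HES1, a Notch target, had 86.1 and 96.3 for SMARCA1 and 95.2 and 92.8 for OGG1. FOSL2, an AP-1 subunit gene, stood at 97.1 and 99.0 for SMARCA1 and 98.2 and 97.5 for OGG1. MYC, the growth-control transcription factor gene, had 95.8 and 98.8 for SMARCA1 and 98.9 and 98.7 for OGG1. These are among the highest, and other members with all 4 libraries ranked low for an antibody. EGR3 stood at 0.572 and 28.4 and HEY1 at 12.2 and 3.74 for SMARCA1, and MYOF at 12.9 and 34.6 for OGG1.

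Structural genes and the highest unlisted genes completed this class. TPM1 and ACTN1, which encode the actin-binding proteins tropomyosin and actinin, stood at 90.9 and 98.4 and at 82.1 and 91.6 for SMARCA1, and at 95.1 and 92.7 and at 99.4 and 91.4 for OGG1. SPARC, a bone matrix protein gene, had 80.9 and 91.1 for SMARCA1 and 86.3 and 97.5 for OGG1. Outside the lists HORMAD2, a meiosis gene, and its neighbour LIF led, with LIF at 99.5 and 100 for SMARCA1 and 99.8 and 99.9 for OGG1. TNFRSF1A, a receptor gene for tumour necrosis factor, had 97.2 and 97.9 for SMARCA1 and 98.4 and 99.1 for OGG1. BCL2L1, which encodes a survival protein, had 94.7 and 99.3 for SMARCA1 and 99.3 and 98.6 for OGG1. RNF43, a brake on Wnt signalling, had 99.5 and 95.3 for SMARCA1 and 99.7 and 99.5 for OGG1.

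Promoter composition differed between the classes. In the RefSeq windows, which were matched for 15813 genes, the median share of G and C was 46.7% for SMARCA1-only genes (n = 69), 67.7% for OGG1-only genes (n = 4384) and 64.7% for genes of all 4 libraries (n = 939). Genes with no library had 56.7% and all windows 62.7%. Without the listed histone genes the SMARCA1-only median was 47.0% (n = 57). Searched on both strands, TATAAA was present in 30.4% of SMARCA1-only windows, 5.31% of OGG1-only windows and 7.03% of windows of all 4, against 9.64% of all windows. Without the histone genes it was present in 24.6% of SMARCA1-only windows. GGGCGG was present in 37.7%, 71.7% and 69.6% of these classes, against 58.5% of all windows, and CCAAT in 43.5%, 32.8% and 37.6%, against 36.3%. With the histone genes left out, SMARCA1-only windows had GGGCGG in 40.4% and CCAAT in 36.8%, the latter close to all windows. Windows of genes with no library had TATAAA in 15.3%, GGGCGG in 42.0% and CCAAT in 38.5%. The listed histone genes carried CCAAT in 87.0% and TATAAA in 65.2% of their windows (n = 46). TATAAA can overlap its own reverse complement, as in ID1, and ATTGG can share bases with GGGCGG. A match describes letters, not a bound site.

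The same antibody contrast in the other 3 conditions kept its direction for size, while the differences in place were near 0 or turned. Those are H2O2-treated siGl3 cells and siOrc6 cells without and with 5 mM H2O2 for 30 min, with 12 libraries in all. SMARCA1 lists had fewer regions, at a mean log2 difference of -1.03, fewer bases (-2.33) and fewer genes occupied (-19.6 points). Each of these gave an exact permutation p of 0.00926, the smallest that 216 arrangements allow, and 0.0185 after Benjamini-Hochberg adjustment over 6 measures. The median width differed by -1575 bp (exact permutation p = 0.0185, adjusted p = 0.0278). The share of regions at gene ends differed by 9.66 points in the other direction (exact permutation p = 0.0741, adjusted p = 0.0889) and the share outside genes by -3.92 points (exact permutation p = 0.167). Neither passed. In siGl3 cells with H2O2 these differences were 0.275 and 0.144 points, and in siOrc6 cells without and with H2O2 they were 16.5 and 12.2 points at gene ends and -7.32 and -4.57 points outside genes. OGG1 replicate 2 of siOrc6 cells without H2O2 stood apart, with 33435 regions and 27.0% of them at gene ends, where replicate 1 had 18759 and 51.8%. Without it, an alternative added after seeing the data, the differences were -0.89, -2.26 and -21.3 points (exact permutation p = 0.0185, 0.0185 and 0.00926 over 108 arrangements) and 5.53 points for the share at gene ends (exact permutation p = 0.167). The SMARCA1 lists of siOrc6 cells bear a mark of resubmission in their names, and that mark and the siRNA cannot be told apart. List lengths in these conditions ran from 11012 to 132408 regions, so they are not matched to those of non-treated siGl3 cells.

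Sharing in those conditions was higher on the SMARCA1 side. SMARCA1 regions were overlapped by OGG1 at 84.5% and 89.5% in siGl3 cells with H2O2, 84.9% and 84.4% in siOrc6 cells without it and 91.7% and 88.5% in siOrc6 cells with it. OGG1 lists covered 25.6% to 27.2% of the span in siGl3 cells with H2O2, 7.02% and 9.50% in siOrc6 cells without it, and 24.6% and 18.4% in siOrc6 cells with it. Of the 1180 genes of all 4 libraries, 88.2%, 95.4% and 97.3% had all 4 libraries in these conditions, where 32%, 31.8% and 61.5% of all genes did. Of the 87 SMARCA1-only genes, 1, 5 and 0 had that pattern again, where 0.01%, 0.335% and 0.511% of all genes had it. At the histone list, 10 genes had SMARCA1 in both and OGG1 in neither library in siOrc6 cells without H2O2, 5 of them among the 12. After H2O2 the number was 0 under either siRNA, and OGG1 was in both libraries at 34 of the 51 genes (66.7%, beside 78.4% of all genes) in siGl3 cells and at 38 (74.5%, beside 74.6%) in siOrc6 cells.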

How the data were processed

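The 4 libraries are SMARCA1 and OGG1 CUT&RUN of non-treated siGl3 cells, grouped by sample title. Per the submitters' processing notes, the tools were SEACR 1.1 with Bowtie2, SAMtools and bedtools, and also DESeq2, DiffBind and deepTools, on hg38; the notes give no roles. The authors deposited for each library a list of stringent regions with the total signal and the maximum signal of each, per the file names and columns. The sources used here do not state how that deposited signal was normalized or against which control, so it served only to rank regions within a list.

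Only chromosomes 1 to 22 and the X were analysed, which left out 164 regions of the 4 lists. Lists were read with Python 3.11.15, numpy 2.4.6, pandas 2.3.3 and scipy 1.17.1, and overlaps of at least 1 bp were checked against bedtools 2.31.1. Genes, their ends and promoters came from RefSeq GRCh38.p14. A gene was occupied when a region overlapped a window of 1 kb on each side of either end. The genome span, 3.03 Gb, sums the last called base of every chromosome. Members of a class were genes or loci by all-or-none pattern over the 4 libraries. Named were list members first (at most 15 per class), then the 10 other genes and the 10 loci of highest mean percentile of total signal and the 5 widest loci. Not every gene or locus of the rule is printed, and list members beyond it, named to spell out a count, were chosen after their values were seen. The members, lists and rules were chosen with earlier results of these data known. An exact permutation test, two-sided, was run on each measure per library. The labels give the replicate number as batch, so the numbers pair the samples, and tests were repeated with that block. None of 153 pairs of lists was identical. The counting of gene patterns was tested on simulated data. Alternatives covered replicates left out, list length, covered bases, signal rank, overlap, window and annotation. A locus among the OGG1-only loci of highest signal is not reported here.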

Additional observations from a re-analysis of the deposited data

Results flagged for a closer look

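The difference between SMARCA1 and OGG1 in the share of regions at gene ends was 12.2 points in siOrc6 cells with H2O2 and -21.2 points in non-treated siGl3 cells. Each SMARCA1 library lay above both OGG1 libraries in siOrc6 cells with H2O2 and below both in non-treated siGl3 cells. The share outside genes differed by -4.57 points in siOrc6 cells with H2O2 and by 16.3 points in non-treated siGl3 cells, again with every library of an antibody on 1 side. These differences between conditions were not tested. The lists of siOrc6 cells with H2O2 held 35381 and 65093 SMARCA1 regions and 132408 and 73301 OGG1 regions, and the part of list length in these shares was not tested.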

How the results depend on the processing

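Of 140 alternatives with a value, 121 were planned and 19 were added after seeing the data, 13 on the histone count and 6 on the other 3 conditions. In 114 the result was labelled the same, in 25 it moved and in 1 it reversed. Same meant that a difference kept its direction and that a count stayed within 1.5 times its value. An overlapped share had to stay within 1 standard deviation of the replicates, 15.9 points for SMARCA1 and 9.09 for OGG1. In the other 3 conditions the exact permutation p also had to stay on the same side of 0.05. In the non-treated control cells no p could pass, so these say nothing about significance. With the replicate block every difference was as before, the genes-occupied difference at -38.8 points, and every exact p was 0.5. Leaving out 1 library gave 117 to 273 SMARCA1-only genes, 5764 to 8201 OGG1-only genes, 1210 to 3742 genes of all libraries and 12 to 24 histone genes. It gave log2 differences of -1.47 to -0.82 in region number and -2.71 to -2.15 in bases. The share at gene ends then differed by -28.1 to -14.3 points, the share outside genes by 12.5 to 20.2, genes occupied by -45.7 to -31.9 and the median width by -3983.75 to -3080.75 bp.

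In lists of equal length, 6992 regions each, SMARCA1-only genes numbered 355, OGG1-only genes 3014 and genes of all 4 libraries 629, and OGG1 overlapped 35.1% of SMARCA1 regions as a mean of both replicates, against 55.2% in full lists. Ranked by maximum signal instead, the SMARCA1-only count was 139 and the OGG1-only count 3049, and the overlapped shares were 37.7% of SMARCA1 and 31.2% of OGG1 regions. In lists of equal covered bases the genes-occupied difference reversed to 4.99 points, the counts were 944, 413 and 113, and the overlapped shares 7.68% and 51.0%, so their order turned. Keeping the regions above each list's median total signal gave 388 genes of all 4 libraries. Asking for 50% of a region to be covered gave 8.90% of OGG1 regions, against 21.8%. Gene spans in place of ends gave 194 SMARCA1-only genes and 1879 of all 4 libraries. All annotated genes gave 334, 9370 and 1930, where more genes were counted. Otherwise the cause was not tested. Read depth is unknown, so precision within a library cannot be given, and with 2 libraries per antibody no single gene or locus can be tested.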

Other observations

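MicroRNA genes, outside the protein-coding map, were counted in the same way. Of 1911 microRNA genes, 8 (0.419%) had SMARCA1 in both libraries and OGG1 in neither, 358 (18.7%) the converse and 28 (1.47%) all 4. Among protein-coding genes these shares were 0.436%, 28.2% and 5.91%, so the SMARCA1-only share of microRNA genes was close to theirs. The 8 were MIR199A2, MIR4263, MIR216A, MIR583, MIR30A, MIR548H3, MIR221 and MIR222. MIR221 and MIR222, neighbours on the X chromosome, shared a SMARCA1 region at the 24.6 percentile of total signal in replicate 1 and the 94.0 in replicate 2, and their 3p arms share a seed. MIR30A stood at 96.0 and 97.5, MIR216A at 98.8 and 98.3 and MIR199A2 at 77.6 and 82.4. Mature sequences from RefSeq (GRCh38.p14) are given for an arm of each of these, with the seed (bases 2 to 8) in capitals.
hsa-miR-221-3p: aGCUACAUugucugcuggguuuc
hsa-miR-222-3p: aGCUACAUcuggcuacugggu
hsa-miR-30a-5p: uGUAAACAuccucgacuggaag
hsa-miR-199a-5p: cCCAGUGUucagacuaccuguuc
hsa-miR-216a-5p: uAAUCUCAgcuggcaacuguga

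Among long non-coding RNA genes 177 of 18177 (0.974%) had SMARCA1 alone and 2516 (13.8%) OGG1 alone. For snoRNA genes the counts were 15 (1.25%) and 71 (5.94%) of 1196, and for tRNA genes 3 (0.699%) and 55 (12.8%) of 429. Protein-coding genes gave 0.436% and 28.2%. No microRNA expression was measured.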
